A study of Arabidopsis thaliana with 9 samples.

Results

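The WRKY genes of Arabidopsis thaliana encode a large family of plant transcription factors, named after the conserved amino acids that open their DNA-binding domain. Members were taken as every gene whose name, transcription factor family or description holds the word WRKY, whatever its values. The rule gave 73 of the 29071 genes listed in at least 1 of the 2 deposited tables: 70 by name, 71 by family and 63 by description, with most matched in several ways. RRS1 and RRS1B, receptor proteins that carry a WRKY domain, were matched through their family, and AT5G46310 through its description alone. All 73 were listed for EtBr against water and 68 for doxycycline against water. AT5G46310, WRKY10, WRKY64, WRKY67 and WRKY68, each with 0 reads in every water library, were not listed in the latter.

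RNA was sequenced from whole 7-day-old seedlings of the wild type Col-0, grown on half-strength Murashige and Skoog medium, in 9 libraries. Control seedlings received water (3 libraries). The other groups received doxycycline (Dox; 3 libraries), an antibiotic that stops protein synthesis in mitochondria and plastids, or ethidium bromide (EtBr, titled EB; 3 libraries), a dye that inserts between the bases of DNA. The sources used here give neither dose nor duration. Nothing states whether the libraries of a group are separate cultures. The p-values therefore reflect the spread among these libraries and no more, and that spread may be technical. The libraries held 17724030 to 20330871 reads on listed genes. Levels below are reads divided by size factors of all 9 libraries ("normalized reads"), always in the order of replicates 1, 2 and 3. Changes are log2 differences of (deposited value + 1) with their standard error (SE), and between EtBr and doxycycline of (normalized reads + 1). A change was called at a limma p under 0.05 after Benjamini-Hochberg adjustment over all genes of the comparison.

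WRKY factors bind the W box, a short promoter element around the core TTGAC, and many are themselves transcribed within minutes of attack by a pathogen, downstream of membrane receptors and MAP kinases. By structure they fall into group I, with a pair of WRKY domains, groups IIa to IIe, with a single domain, and group III, whose zinc finger differs. In plants with disturbed mitochondria, WRKY40 is known as a repressor and WRKY63 as an activator of nuclear genes for mitochondrial proteins, among them the alternative oxidase AOX1A, and WRKY15 is known to restrain the response to mitochondrial signals under salt stress.

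The promoters of 6 members are shown because the results turn on these genes: WRKY63, WRKY75, WRKY25 and WRKY15 rose with both treatments, WRKY53 fell with both, and WRKY40 fell with EtBr. Each sequence is the 250 bases before the annotated start, read 5′ to 3′ on the gene's own strand from the RefSeq genome TAIR10.1, in which all 73 members have the start and end of the deposited tables. Capitals mark the W boxes TTGACC and TTGACT and, for boxes on the other strand, GGTCAA and AGTCAA. The windows are chr1:24848070-24848319, plus strand for WRKY63, chr5:4151202-4151451, minus strand for WRKY75, chr2:12905339-12905588, minus strand for WRKY25, chr2:9924636-9924885, plus strand for WRKY15, chr4:12393983-12394232, minus strand for WRKY53 and chr1:30383311-30383560, plus strand for WRKY40.
WRKY63: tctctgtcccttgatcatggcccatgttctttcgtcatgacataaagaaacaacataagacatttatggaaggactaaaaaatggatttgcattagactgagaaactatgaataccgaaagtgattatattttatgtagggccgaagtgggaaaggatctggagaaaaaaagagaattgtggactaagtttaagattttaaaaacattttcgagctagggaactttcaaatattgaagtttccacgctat
WRKY75: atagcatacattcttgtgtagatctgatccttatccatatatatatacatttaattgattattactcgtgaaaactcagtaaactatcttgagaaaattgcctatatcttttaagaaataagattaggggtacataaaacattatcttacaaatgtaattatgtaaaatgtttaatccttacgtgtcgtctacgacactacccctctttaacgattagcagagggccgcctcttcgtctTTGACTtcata
WRKY25: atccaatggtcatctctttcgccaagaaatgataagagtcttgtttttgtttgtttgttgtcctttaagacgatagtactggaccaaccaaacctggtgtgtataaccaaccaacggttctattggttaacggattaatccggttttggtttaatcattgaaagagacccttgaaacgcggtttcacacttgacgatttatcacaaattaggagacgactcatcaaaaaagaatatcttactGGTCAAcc
WRKY15: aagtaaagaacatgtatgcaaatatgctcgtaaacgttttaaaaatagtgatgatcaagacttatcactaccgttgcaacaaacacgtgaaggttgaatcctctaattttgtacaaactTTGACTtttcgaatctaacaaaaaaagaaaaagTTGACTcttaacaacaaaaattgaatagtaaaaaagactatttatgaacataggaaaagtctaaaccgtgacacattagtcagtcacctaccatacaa
WRKY53: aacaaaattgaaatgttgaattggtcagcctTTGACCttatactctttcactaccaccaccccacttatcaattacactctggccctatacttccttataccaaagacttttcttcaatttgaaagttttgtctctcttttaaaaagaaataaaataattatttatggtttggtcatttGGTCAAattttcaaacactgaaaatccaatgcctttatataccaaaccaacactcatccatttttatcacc
WRKY40: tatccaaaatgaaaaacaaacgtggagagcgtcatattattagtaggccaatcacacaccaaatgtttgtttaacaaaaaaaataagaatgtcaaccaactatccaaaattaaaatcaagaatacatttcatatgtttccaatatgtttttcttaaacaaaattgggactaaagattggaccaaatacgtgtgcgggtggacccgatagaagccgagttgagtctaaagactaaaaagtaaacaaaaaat

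The box of WRKY75 began 11 bases before the start and that of WRKY25, on the other strand, 8 bases before it. WRKY15 had boxes 131 and 98 bases before the start, and WRKY53 had boxes 219 and 71 bases before it. Neither WRKY63 nor WRKY40 had TTGACC or TTGACT on either strand of the window. The core TTGAC before other bases was neither marked nor counted, as in WRKY40 (tgtcaa, on the other strand) and WRKY25 (ttgacg). Counted from 250 bases before to 50 after the start on both strands, 26 of the 73 WRKY genes (35.6%) held at least 1 box, against 32.1% of 28243 genes, and 12 (16.4%) held at least 2, against 7.49%. Of members called with EtBr, a box stood in 10 of the 20 that were higher (50%) and in 2 of the 15 that were lower (13.3%), against 14 of the 38 not called (36.8%). Of those called with doxycycline, it stood in 6 of the 14 that were higher (42.9%) and 2 of the 4 that were lower. The mitochondrial dysfunction motif, the element bound by NAC factors in genes that respond to impaired mitochondria, was in 0 of the 73 WRKY windows and in 1.39% of all windows. A match describes letters, not a bound site.

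Some libraries stood apart from others of their group. Reads of EtBr replicates 1 and 2 differed with a chi-square of 8.90 per degree of freedom over genes, while EtBr replicate 3 differed from them with 66.6 and 57.9. Within doxycycline the values were 12.8 to 23.4 and within water 24.8 to 49.6, so no library was a copy of another. The 49.6 was that of water replicates 1 and 2, and water replicate 2 was the lowest water library for 34 of 56 members with a water mean of at least 20, against 35.1% of all such genes. WRKY genes took 0.371, 0.352 and 0.36% of the reads in water, 0.397, 0.394 and 0.422% with doxycycline, and 0.276, 0.282 and 0.403% with EtBr. Counts of WRKY genes called with EtBr are therefore given with and without EtBr replicate 3. The change of a single member is given without it where that turned its call or direction or moved it by more than 1.5 times. Markers of leaf tissue (8 of 8 found, all with reads) summed to 628330 to 654240 normalized reads in water, 582680 to 681870 with doxycycline and 309700 to 481530 with EtBr. The leaf marker RBCS1A alone stood at 302193 to 354026 in water, 293938 to 332826 with doxycycline and 212656 to 323703 with EtBr. Its change with EtBr did not pass, at -0.27 ± 0.32 (limma adjusted p = 0.487). Of 9 root markers, all were found. They summed to 8735 to 18125 in water, 5905 to 6851 with doxycycline and 13729 to 33318 with EtBr. PYK10, a root beta-glucosidase, made up 57.2 to 85.6% of the sum in water and 88.1 to 95.8% with EtBr. Without PYK10 the sums were 1546 to 3735 in water, 1273 to 1564 with doxycycline and 1365 to 1629 with EtBr. Of the root hair genes, COBL9 was at 0 in doxycycline replicate 1 alone and EXPA7 in doxycycline replicate 3 alone. In whole seedlings a shift in the share of a cell type and a change of RNA per cell cannot be told apart, and the part of these tissue markers in the results below was not tested.

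**Figure D1:**
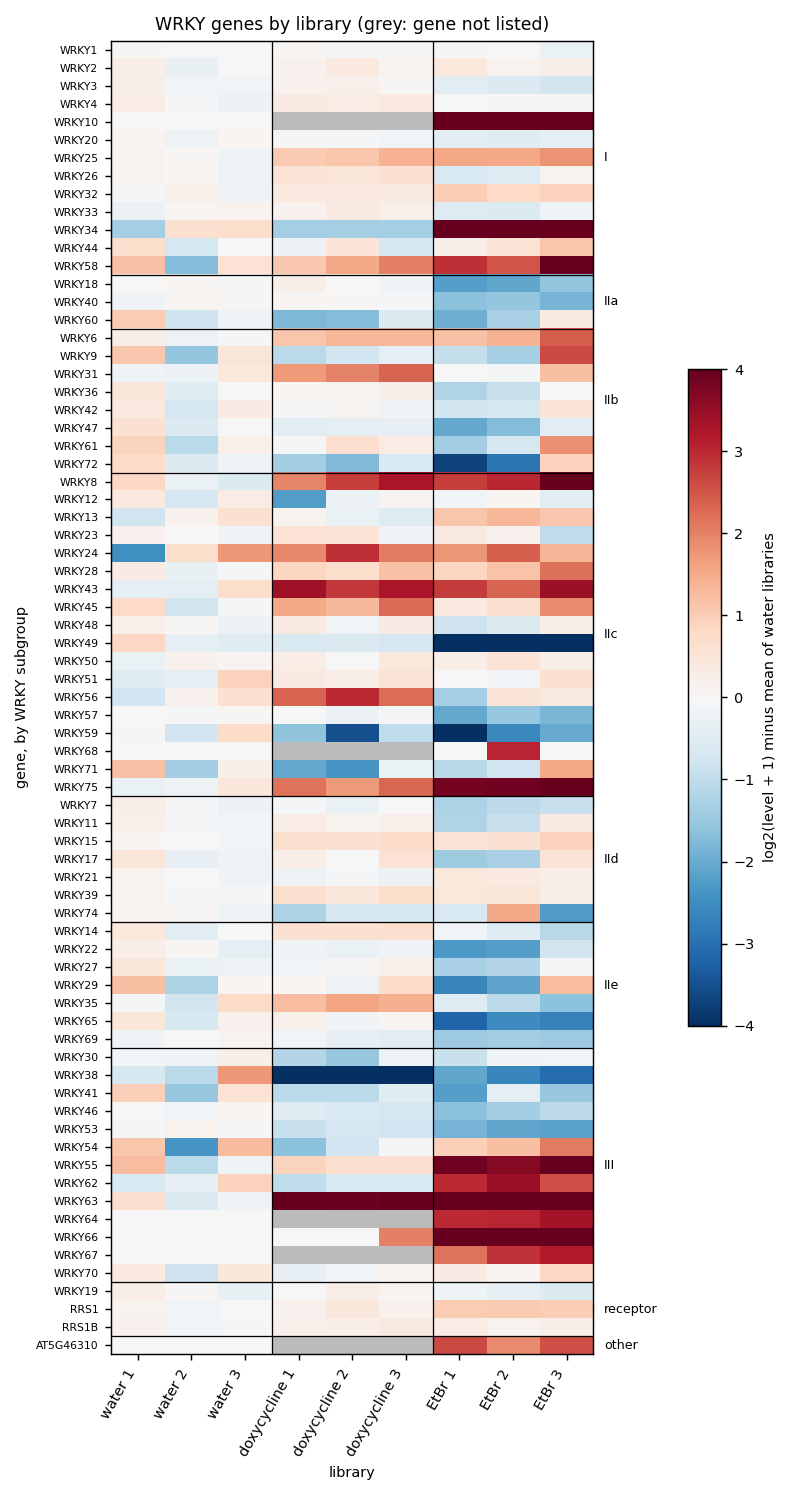
Every WRKY gene (rows, by structural subgroup) in every library (columns), coloured by log2(normalized reads + 1) minus the mean of the 3 water libraries; colours saturate beyond 4 log2 units in either direction and grey marks the 5 genes not listed in the doxycycline table. WRKY63, WRKY75 and WRKY8 are red in all 6 treated libraries, WRKY18, WRKY40 and WRKY57 are blue in the 3 EtBr libraries, and many members of groups IIb and IIe differ between EtBr replicate 3 and the other EtBr libraries.

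In water the family spanned from no reads to 12817 normalized reads: 17 members had a mean of at least 1000, 27 a mean of 100 to 1000, 13 a mean of 10 to 100 and 16 less, of which 6 had no reads. Per kilobase of exons, the most abundant were WRKY40 (6897 ± 636, SD, n = 3) and WRKY33 (6320 ± 872), which differed by less than their SD, followed by WRKY22 (3053 ± 644), WRKY18 (2608 ± 160) and WRKY15 (2506 ± 166), of which WRKY18 and WRKY15 differed by less than their SD. With doxycycline WRKY33 (7468 ± 573) and WRKY40 (6973 ± 377) still led per kilobase, ahead of WRKY15 (3958 ± 141). With EtBr the leading levels per kilobase were those of WRKY33 (4733 ± 741), WRKY15 (4044 ± 649). WRKY75 (2681 ± 854), WRKY6 (2491 ± 1231), WRKY25 (2344 ± 234) and WRKY40 (2150 ± 240) followed and differed by less than the SD of WRKY75. In EtBr replicates 1 and 2 alone WRKY40 (mean 2278), WRKY25 (2209) and WRKY75 (2189) came next after WRKY33 and WRKY15.

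Doxycycline against water asks which genes of the family differ between seedlings given the antibiotic and those given water. Organelle translation itself was not measured. Of the 68 members tested, 14 were higher, 4 were lower and 50 did not pass the test. That is 26.5% of the members against 11.7% of all 24434 genes. Higher calls made up 20.6% against 6.47%, and lower calls 5.88% against 5.27%. Whether other families differ as much from all genes was not tested. The median change of the members was 0.14 (log2), against -0.01 for all genes. Group IIc held 6 of the 14 rises among its 17 tested members, and group III held 3 of the 4 falls among 11. With 1 library left out, 8 of these 18 calls were kept in each of 6 omissions (WRKY63, WRKY75, WRKY6, WRKY25, WRKY31, WRKY53, WRKY15 and WRKY43). The count of higher calls was 8, 8 and 7 without doxycycline replicates 1, 2 and 3, 8 without water replicate 2 and 9 without water replicate 3. The count of lower calls was 2, 1 and 1 without doxycycline replicates 1, 2 and 3. The shares of all genes called in these smaller fits were not computed, so the drop is no result about the family.

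EtBr against water asks the same of the intercalating dye. Of 73 members 20 were higher, 15 were lower and 38 did not pass. The 20 include AT5G46310, WRKY10, WRKY64 and WRKY67, listed for EtBr alone. They had 0 reads in water, so a lower call was not possible for them. The 47.9% called lay below the 55.4% called among all 28956 genes, with 27.4% against 34.2% higher and 20.5% against 21.2% lower, so the share called was near that of genes at large and is no result about the family. The members' median was -0.14 (log2) while that of all genes was 0.39. Of the 28956 genes, 24319 were also listed for doxycycline, and the rest had few reads in water. Water replicate 1 held 19903926 reads on the genes listed for EtBr and 19903819 on those listed for doxycycline. Genes nearly silent in water can hardly fall, and their part in the gap between the medians was not tested. Without EtBr replicate 3 the counts were 20 higher and 22 lower, where 53.5% of all genes were called (33.6% higher and 19.9% lower). Then 19 of the 20 rises and 14 of the 15 falls were shared with the 6-library fit. WRKY58 and WRKY38 were no longer called, and WRKY21, WRKY11, WRKY17, WRKY26, WRKY27, WRKY33, WRKY36, WRKY48 and WRKY72 were added. Without water replicate 2 the counts were 19 higher and 17 lower, and the share of all genes called in that fit was not computed. Of the 35 calls, 27 were kept in each of the 6 omissions of 1 library.

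Both comparisons share the water libraries, so they are given side by side and their agreement is not used as evidence. Among the members, 9 were called higher in both, 3 were called lower in both (WRKY38, WRKY46 and WRKY53), and 0 were called in opposite directions. Doxycycline alone gave 5 higher calls (WRKY26, WRKY31, WRKY35, WRKY45 and WRKY56) and 1 lower call (WRKY72), and EtBr alone gave 7 higher and 12 lower calls among members listed in both tables. Neither treatment gave a call for 31 members. The shares of all genes with these pairs of calls were not computed, so the counts are no result about the family. Without EtBr replicate 3 again 9 were higher in both and 3 lower in both, but WRKY38 left the latter set and WRKY72 entered it, and 1 member, WRKY26, was called higher with doxycycline and lower with EtBr.

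**Figure D2:**
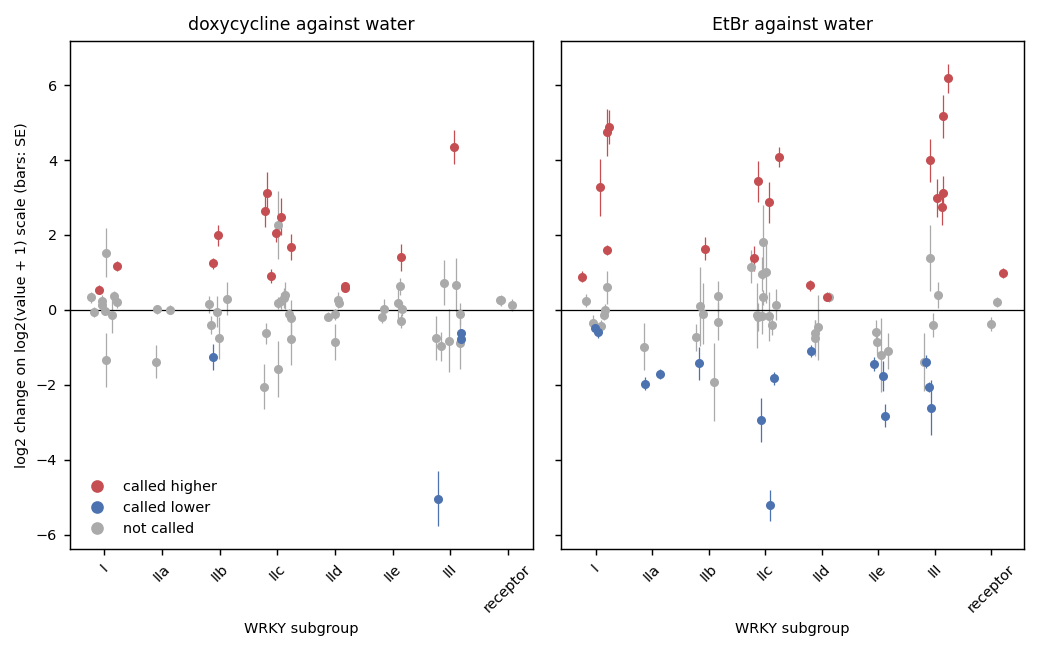
Log2 change of each tested WRKY gene against water on the log2(value + 1) scale with its SE (bars), by subgroup, for doxycycline (left, 68 genes) and EtBr (right, 73 genes). Red points were called higher (14 and 20 genes), blue points lower (4 and 15) and grey points not called, and AT5G46310, 1 of the 20, is in no subgroup and not drawn.

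WRKY63 (AT1G66600, chromosome 1, 24848320 to 24849543, plus strand), the activator of mitochondrial stress genes, was almost silent in water. It stood at 8.22, 2.97 and 4.26 in water, 104, 86.1 and 180.4 with doxycycline and 323, 421 and 552 with EtBr. Every treated library was above every water library, and every EtBr library was above every doxycycline library. The change was 4.34 ± 0.46 (limma adjusted p = 0.000198) with doxycycline and 6.18 ± 0.39 (limma adjusted p = 1.31e-05) with EtBr. EtBr exceeded doxycycline by 1.84 ± 0.32 (limma adjusted p = 0.003). Without EtBr replicate 3 the change with EtBr was 5.99 ± 0.46 (limma adjusted p = 0.000978).

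WRKY63 lies in a row of group III genes on the plus strand of chromosome 1, with WRKY67 and WRKY64 upstream. The gap between WRKY67 and WRKY64 is 3857 bases and that between WRKY64 and WRKY63 is 13518 bases. WRKY64 had 0 reads in water and stood at 6.95, 7.27 and 8.95 with EtBr. That is at least 7.48-fold higher against a floor of 3 reads over the water group, and at least 4.90-fold without water replicate 2, for which the floor covers fewer libraries. WRKY67 likewise had 0 reads in water and 3.48, 6.36 and 7.96 with EtBr, at least 5.69-fold higher, or at least 3.72-fold without water replicate 2. Identical stretches of 50 bases were counted between members, with 2 between WRKY64 and WRKY67 and none between other members. Stretches that differ in single bases were not counted. Whether reads of 1 gene of this row were assigned to another was not tested.

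WRKY40 (AT1G80840, chromosome 1, 30383561 to 30385499, plus strand), the repressor of the same mitochondrial genes and of defence genes, did not pass the test with doxycycline and fell with EtBr. Its levels were 8209, 9851 and 9354 in water, 9629.7, 9412 and 8676 with doxycycline and 2894, 3142 and 2511 with EtBr. The doxycycline libraries lay within the range of the water libraries, while all EtBr libraries were below both groups without overlap. The change was 0.00 ± 0.12 (limma adjusted p = 0.992) with doxycycline, -1.71 ± 0.14 (limma adjusted p = 3.83e-05) with EtBr and -1.70 ± 0.11 (limma adjusted p = 8.39e-05) between EtBr and doxycycline. WRKY18 (AT4G31800, chromosome 4, 15382777 to 15385100, plus strand), its group IIa partner in immune repression, stood at 5260.4, 5624 and 4977 in water, 6152, 5313 and 4790.4 with doxycycline and 1152, 1261 and 1771 with EtBr. It too was low in the EtBr libraries alone. The change was -1.97 ± 0.17 (limma adjusted p = 5.28e-05) with EtBr and 0.02 ± 0.12 (limma adjusted p = 0.954) with doxycycline. WRKY60, the remaining member of group IIa, spread widely and passed neither test, at 833, 229.6 and 364 in water, 117, 123 and 279 with doxycycline and 106, 167 and 530.3 with EtBr. The groups overlapped, and its change with doxycycline was -1.38 ± 0.45 (limma adjusted p = 0.0759) and with EtBr -0.98 ± 0.63 (limma adjusted p = 0.214), or -1.64 ± 0.61 (limma adjusted p = 0.0795) without EtBr replicate 3. Of the tools and settings tried, edgeR without a filter called its change with doxycycline (-1.48, edgeR adjusted p = 0.0467).

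WRKY15 (AT2G23320, chromosome 2, 9924886 to 9926372, plus strand) rose with each treatment. Its levels were 3395, 3279 and 2981 in water, 5006, 4952 and 5289.8 with doxycycline and 4569, 4869 and 6139 with EtBr. No treated library fell as low as a water library, and the treated groups overlapped. The change was 0.65 ± 0.11 (limma adjusted p = 0.00318) with doxycycline and 0.66 ± 0.15 (limma adjusted p = 0.00551) with EtBr. EtBr minus doxycycline was 0.02 ± 0.13 (limma adjusted p = 0.91), or -0.11 ± 0.08 (limma adjusted p = 0.27) without EtBr replicate 3. Of 7 listed mitochondrial stress genes studied with these factors, 6 were measured and all 6 rose with each treatment, with median log2 changes of 3.51 and 4.95. UPOX, the remaining gene, was not analysed here. Among all genes 6.47% were higher with doxycycline and 34.2% with EtBr. The list was drawn up with earlier results of these data known, so its count is no test. AOX1A, the alternative oxidase, stood at 392, 668 and 434 in water, 6193, 7460.2 and 9700.0 with doxycycline and 12822, 13678 and 18317 with EtBr, and AOX1D, its stress-induced relative, at 5.14, 0.989 and 5.32 in water, 405, 645 and 687 with doxycycline and 1237, 1204 and 1489 with EtBr. Every treated library was far above water for both. The changes of AOX1A were 3.96 ± 0.21 (limma adjusted p = 1.85e-06) with doxycycline and 4.90 ± 0.23 (limma adjusted p = 4.42e-06) with EtBr. Those of AOX1D were 7.03 ± 0.47 (limma adjusted p = 8.50e-06) and 8.25 ± 0.45 (limma adjusted p = 7.52e-06).

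WRKY75 (AT5G13080, chromosome 5, 4149738 to 4151201, minus strand), which acts in phosphate starvation, senescence and defence, rose in steps. It stood at 99.7, 106 and 167 in water, 551, 394 and 598 with doxycycline and 1736, 1809.8 and 2969.7 with EtBr. The 3 groups did not overlap. The changes were 2.04 ± 0.24 (limma adjusted p = 0.000372) with doxycycline and 4.09 ± 0.27 (limma adjusted p = 1.45e-05) with EtBr. EtBr exceeded doxycycline by 2.05 ± 0.25 (limma adjusted p = 0.000669). WRKY25 (AT2G30250, chromosome 2, 12903208 to 12905338, minus strand), a group I factor of heat tolerance and a partner of the kinase MPK4, stood at 1486, 1384 and 1187 in water, 2773, 2933 and 3495 with doxycycline and 3939, 3908 and 4643 with EtBr. Its groups did not overlap either. The changes were 1.17 ± 0.13 (limma adjusted p = 0.000271) and 1.60 ± 0.14 (limma adjusted p = 4.81e-05). The difference between treatments was 0.44 ± 0.12 (limma adjusted p = 0.0211) and was not called without doxycycline replicate 1 or 2 (0.36 to 0.54 over the 6 omissions, with limma adjusted p up to 0.0786).

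WRKY6 (AT1G62300, chromosome 1, 23016569 to 23019494, minus strand), a regulator of senescence and of phosphate loading, stood at 2037, 1482 and 1609.8 in water, 3630.2, 4215 and 4301 with doxycycline and 3836, 4439 and 9055 with EtBr. All treated libraries were above water, and EtBr replicate 3 was the highest of all. The changes were 1.24 ± 0.14 (limma adjusted p = 0.000287) with doxycycline and 1.64 ± 0.30 (limma adjusted p = 0.00211) with EtBr, and 1.26 ± 0.17 (limma adjusted p = 0.0044) for EtBr without its replicate 3. WRKY8 (AT5G46350, chromosome 5, 18801164 to 18804056, minus strand), known from salt tolerance and resistance to a plant virus, stood at 34.9, 15.8 and 12.8 in water, 77.8, 137 and 196 with doxycycline and 137, 162 and 490.5 with EtBr. Again no treated library overlapped water. The changes were 2.65 ± 0.45 (limma adjusted p = 0.004) and 3.44 ± 0.55 (limma adjusted p = 0.000963). The doxycycline call was lost when doxycycline replicate 2 or 3, or water replicate 2 or 3, was left out (log2 2.34 to 3.07 over the 6 omissions, with limma adjusted p up to 0.0942).

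The other 3 members that were higher in both comparisons and not yet described were less abundant or changed less, and were chosen after their values were seen. WRKY28, an activator of the salicylate synthesis gene ICS1, stood at 423, 277 and 331 in water, 610.0, 549 and 767 with doxycycline and 610.3, 739.9 and 1571 with EtBr. The changes were 0.89 ± 0.18 (limma adjusted p = 0.0114) and 1.37 ± 0.34 (limma adjusted p = 0.00851), with no overlap with water. The doxycycline call was lost in 5 of 6 omissions, all but water replicate 1 (log2 0.74 to 1.05 over the 6 omissions, with limma adjusted p up to 0.139), and the EtBr call without EtBr replicate 2 (log2 0.96 to 1.65 over the 6 omissions, with limma adjusted p up to 0.0585). WRKY39, a factor of heat tolerance, rose by 0.58 ± 0.12 (limma adjusted p = 0.0101) and 0.35 ± 0.13 (limma adjusted p = 0.0443). Its doxycycline call was lost when doxycycline replicate 1 or 3, or water replicate 2 or 3, was left out (log2 0.52 to 0.66 over the 6 omissions, with limma adjusted p up to 0.0962). Its EtBr call was lost when EtBr replicate 1 or 2, or water replicate 2 or 3, was left out (log2 0.30 to 0.43 over the 6 omissions, with limma adjusted p up to 0.122). WRKY43 had 1 read in the 3 water libraries together, 31 with doxycycline and 28 with EtBr. The ratios of normalized reads were 30.8 (95% exact binomial interval 5.13 to 1254) and 25.1 (4.16 to 1028), intervals that cover counting error only.

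**Figure D3:**
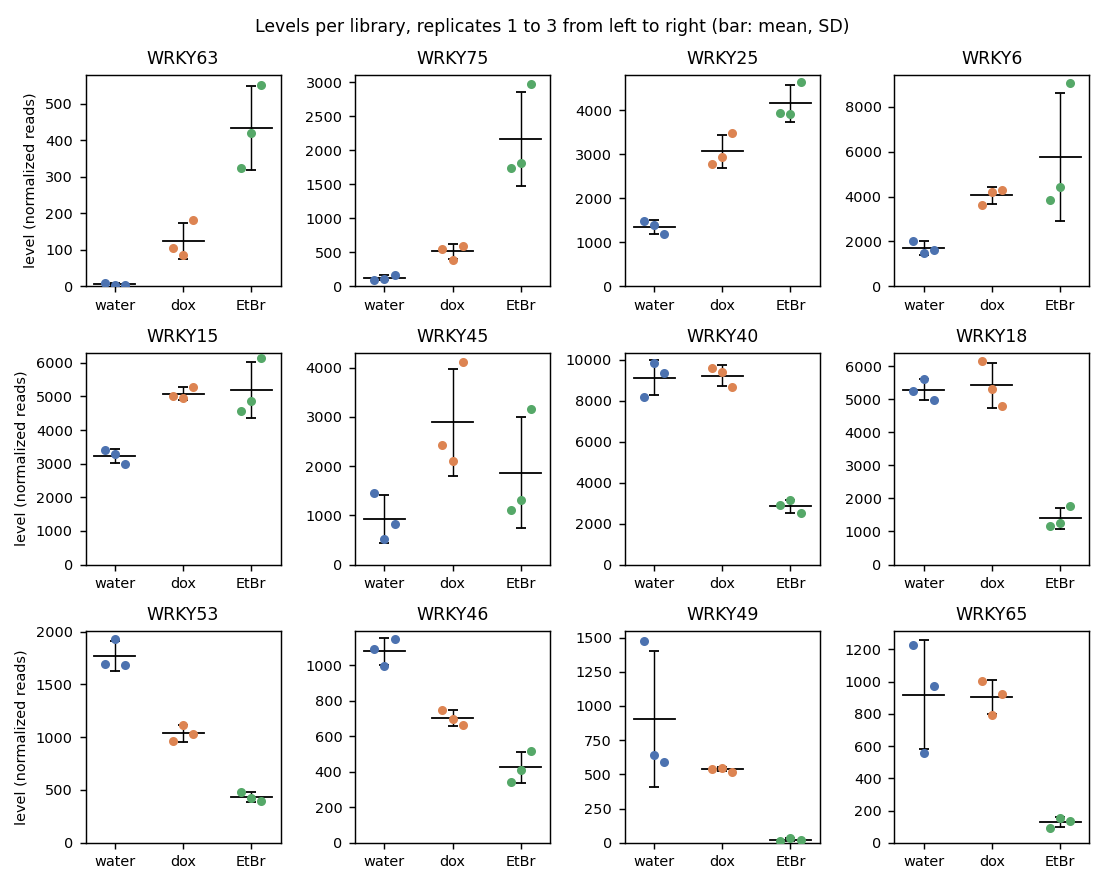
Normalized reads of 12 WRKY genes in each library (points, replicates 1 to 3 from left to right) for water, doxycycline (dox) and EtBr, with the mean (long bar) and SD (error bar) of 3 libraries; each panel has its own axis from 0. WRKY63, WRKY75 and WRKY25 rise in steps from water to EtBr, WRKY53 and WRKY46 fall in steps, and WRKY40, WRKY18 and WRKY65 are low with EtBr and overlap between water and doxycycline.

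The members called higher with doxycycline and not with EtBr were mostly of groups IIb, IIc and IIe, and the difference between treatments itself was called for 4 of the 5, and for all 5 without EtBr replicate 3. WRKY31 (AT4G22070, chromosome 4, 11691172 to 11694590, minus strand) stood at 42.1, 40.6 and 64.9 in water, 158, 194 and 248 with doxycycline and 48.7, 45.5 and 112 with EtBr. All doxycycline libraries were above all others, including EtBr replicate 3. The change was 2.00 ± 0.28 (limma adjusted p = 0.00118) against 0.36 ± 0.41 (limma adjusted p = 0.464) for EtBr, which was -0.05 ± 0.30 (limma adjusted p = 0.892) without EtBr replicate 3. EtBr minus doxycycline was -1.63 ± 0.38 (limma adjusted p = 0.0104). WRKY35 (AT2G34830, chromosome 2, 14693696 to 14696803, minus strand) stood at 50.3, 30.7 and 89.4 in water, 124, 158 and 142 with doxycycline and 35.6, 24.5 and 15.9 with EtBr. Its EtBr libraries lay below the doxycycline libraries and overlapped water. The change with doxycycline was 1.41 ± 0.36 (limma adjusted p = 0.0303), that with EtBr -1.09 ± 0.47 (limma adjusted p = 0.0802) and the difference between treatments -2.49 ± 0.33 (limma adjusted p = 0.000885). The doxycycline call of WRKY35 was lost in every omission but that of water replicate 3 (log2 1.04 to 1.801 over the 6 omissions, with limma adjusted p up to 0.201).

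WRKY56 (AT1G64000, chromosome 1, 23747304 to 23749053, plus strand) stood at 3.08, 6.93 and 9.58 in water, 33.8, 54.7 and 31.6 with doxycycline and 1.74, 9.09 and 7.96 with EtBr. The doxycycline libraries were apart from both other groups, which overlapped. Its change was 2.49 ± 0.49 (limma adjusted p = 0.00844) with doxycycline and -0.18 ± 0.65 (limma adjusted p = 0.83) with EtBr. EtBr minus doxycycline was -2.66 ± 0.57 (limma adjusted p = 0.00728). The doxycycline call was lost without any 1 of the doxycycline libraries or water replicate 2 (log2 2.105 to 2.79 over the 6 omissions, with limma adjusted p up to 0.0942), and the difference between treatments was -2.07 without EtBr replicate 1. WRKY45 (AT3G01970, chromosome 3, 325952 to 327412, minus strand), an activator of phosphate uptake, stood at 1462, 511 and 816 in water, 2437, 2106 and 4119 with doxycycline and 1117, 1312 and 3164 with EtBr. Doxycycline replicate 3 and EtBr replicate 3 were the highest of their groups and EtBr overlapped water. The change with doxycycline was 1.69 ± 0.35 (limma adjusted p = 0.0108), lost in every omission but that of water replicate 1 (log2 1.32 to 2.08 over the 6 omissions, with limma adjusted p up to 0.17), and the change with EtBr was 0.95 ± 0.46 (limma adjusted p = 0.112). The difference between treatments did not pass, at -0.73 ± 0.43 (limma adjusted p = 0.193), but did without EtBr replicate 3, at -1.19 ± 0.30 (limma adjusted p = 0.0182). WRKY26, a group I relative of WRKY25 and WRKY33 in heat tolerance, rose by 0.54 ± 0.12 (limma adjusted p = 0.0156) with doxycycline, a call lost in every omission but that of water replicate 1 (log2 0.44 to 0.60 over the 6 omissions, with limma adjusted p up to 0.119). With EtBr its change was -0.35 ± 0.21 (limma adjusted p = 0.181), or -0.58 ± 0.13 (limma adjusted p = 0.0208) without EtBr replicate 3. EtBr minus doxycycline was -0.88 ± 0.20 (limma adjusted p = 0.00843).

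WRKY53 (AT4G23810, chromosome 4, 12392370 to 12393982, minus strand), a promoter of leaf senescence, fell with each treatment and more with EtBr. It stood at 1692, 1929.5 and 1684 in water, 961, 1114 and 1031 with doxycycline and 483, 420.0 and 396 with EtBr. The 3 groups did not overlap. The change was -0.79 ± 0.11 (limma adjusted p = 0.00116) with doxycycline and -2.05 ± 0.13 (limma adjusted p = 1.46e-05) with EtBr. EtBr minus doxycycline was -1.26 ± 0.11 (limma adjusted p = 0.000191). WRKY46 (AT2G46400, chromosome 2, 19043411 to 19044955, minus strand), a relative in group III that acts in drought and brassinosteroid responses, stood at 1088, 996 and 1145 in water, 748, 698 and 662 with doxycycline and 343, 411 and 518 with EtBr, also without overlap. Its changes were -0.63 ± 0.11 (limma adjusted p = 0.0051) and -1.38 ± 0.17 (limma adjusted p = 0.000257), and -0.75 ± 0.16 (limma adjusted p = 0.00718) between treatments. The doxycycline call was lost without doxycycline replicate 2 or 3 (log2 -0.69 to -0.58 over the 6 omissions, with limma adjusted p up to 0.0564). The opposite-strand neighbour AT4G23800 overlaps WRKY53 and had means of 256 in water, 221 with doxycycline and 193 with EtBr. Without strand information the reads of the overlap cannot be assigned.

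WRKY38 (AT5G22570, chromosome 5, 7495455 to 7496990, minus strand), a repressor of basal defence known to be induced by salicylate, was detected in water at 20.5, 14.8 and 111, with water replicate 3 far above the others, and had 0 reads in all doxycycline libraries. Doxycycline was at least 46.7-fold lower against the floor of 3 reads over the group, at least 17.3-fold without water replicate 3 and at least 31.0-fold without doxycycline replicate 2, where the floor covers fewer libraries. EtBr libraries held 6.95, 4.55 and 2.98, below every water library. The change was -2.61 ± 0.74 (limma adjusted p = 0.0164), or -1.75 without water replicate 3. The EtBr call was lost without any 1 of the EtBr libraries (log2 -3.15 to -1.75 over the 6 omissions, with limma adjusted p up to 0.103), and the doxycycline call without any 1 of the doxycycline libraries (adjusted p up to 0.0568). WRKY72, which acts in basal immunity, stood at 1017, 414 and 531 in water, 231, 178 and 395 with doxycycline and 45.2, 80.9 and 1143 with EtBr. Its change with doxycycline was -1.27 ± 0.35 (limma adjusted p = 0.0396), a call lost in each of the 6 omissions (log2 -1.59 to -0.90 over the 6 omissions, with limma adjusted p up to 0.276), while the EtBr libraries ranged from the lowest to the highest of all 9. Its change with EtBr was -1.92 ± 1.04 (limma adjusted p = 0.149), or -3.33 ± 0.48 (limma adjusted p = 0.00548) without EtBr replicate 3.

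Members called higher with EtBr and not with doxycycline were mostly scarce in water. WRKY55 (AT2G40740, chromosome 2, 16997078 to 16999499, plus strand), a group III factor of senescence and defence, stood at 18.5, 2.97 and 6.38 in water, 14.3, 12.2 and 12.2 with doxycycline and 122, 105 and 182 with EtBr. The EtBr libraries were above all others and the doxycycline libraries lay within the range of water. The change with EtBr was 3.99 ± 0.58 (limma adjusted p = 0.000577), or 4.61 without water replicate 1. EtBr exceeded doxycycline by 3.27 ± 0.29 (limma adjusted p = 0.000196). Its neighbour WRKY54, 919 bases away on the opposite strand and active in senescence and osmotic stress, stood at 142, 11.9 and 159 in water, 20.5, 38.5 and 62.2 with doxycycline and 128, 153 and 279.6 with EtBr. It passed neither test against water, and water replicate 2 was the lowest of all 9 libraries. EtBr exceeded doxycycline by 2.23 ± 0.47 (limma adjusted p = 0.00669).

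WRKY62 (AT5G01900, chromosome 5, 350925 to 352095, minus strand), a relative of WRKY38 with a like role in defence, stood at 3.08, 3.96 and 10.6 in water, 2.05, 3.04 and 3.06 with doxycycline and 47.8, 65.4 and 35.8 with EtBr. EtBr was apart from both other groups. The change was 2.98 ± 0.51 (limma adjusted p = 0.00136). WRKY58 (AT3G01080, chromosome 3, 25355 to 27712, plus strand), a negative regulator of systemic acquired resistance, stood at 50.3, 5.94 and 33.0 in water, 47.1, 64.8 and 92.8 with doxycycline and 175, 129 and 494 with EtBr. EtBr libraries were highest and replicate 3 exceeded the others. The change was 3.27 ± 0.77 (limma adjusted p = 0.00698), 2.41 without water replicate 2, and 2.70 ± 0.95 (limma adjusted p = 0.0702) without EtBr replicate 3, when it was no longer called, as also without EtBr replicate 1 (log2 2.41 to 3.85 over the 6 omissions, with limma adjusted p up to 0.0702). WRKY66 (AT1G80590, chromosome 1, 30296166 to 30297224, minus strand) had 0 reads in water, 3 in doxycycline replicate 3 alone, and stood at 26.1, 19.998 and 77.6 with EtBr. EtBr was at least 38.9-fold above water, at least 22.5-fold without EtBr replicate 3 and at least 25.5-fold without water replicate 2. Against doxycycline the ratio of normalized reads was 39.2 (95% exact binomial interval 13.1 to 193), and the log2 difference of 4.48 became 5.15 without doxycycline replicate 3.

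WRKY34 (AT4G26440, chromosome 4, 13357596 to 13359551, minus strand), a pollen factor, had 0 reads in water replicate 1, 2.97 and 3.19 normalized reads in replicates 2 and 3, 0 in all doxycycline libraries and 49.6, 82.7 and 75.6 with EtBr. The change with EtBr was 4.75 ± 0.63 (limma adjusted p = 0.000365), or 4.06 without water replicate 1. It overlaps AT4G26430 on the opposite strand, whose means were 177 in water, 193 with doxycycline and 431 with EtBr. Reads of the overlap cannot be assigned without strand information, and their share was not measured. WRKY10, known as MINISEED3 for its role in the endosperm of seeds, had 0 reads in water and 27.8, 38.2 and 20.9 with EtBr, at least 28.4-fold higher, or at least 18.6-fold without water replicate 2, where the floor covers fewer libraries. AT5G46310 (chromosome 5, 18785672 to 18786956, plus strand), which the deposited description alone ties to the family and which lies 14207 bases from WRKY8, had 0 reads in water and 5.22, 2.73 and 4.97 with EtBr, at least 4.19-fold higher, or at least 2.74-fold without water replicate 2. WRKY68 had reads in EtBr replicate 2 alone.

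The remaining rises with EtBr were modest. RRS1 (AT5G45260, chromosome 5, 18326203 to 18332920, plus strand), an immune receptor fused to a WRKY domain, stood at 336, 284 and 300.0 in water, 348, 418 and 342 with doxycycline and 622, 629 and 603 with EtBr. EtBr was apart from the other groups. The change was 0.99 ± 0.13 (limma adjusted p = 0.000412) against water and 0.75 ± 0.11 (limma adjusted p = 0.00143) against doxycycline. RRS1B and WRKY19, the other receptor-fused members, passed neither test against water. WRKY32 of group I stood at 323, 389 and 302 in water, 437, 441 and 427 with doxycycline and 671, 587 and 634 with EtBr and rose by 0.88 ± 0.15 (limma adjusted p = 0.00135) with EtBr. Its change of 0.36 with doxycycline did not pass, although the groups did not overlap.

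With EtBr 15 members fell, and the 3 largest falls were in groups IIc and IIe. WRKY49 (AT5G43290, chromosome 5, 17371808 to 17373221, minus strand) stood at 1475, 644 and 587 in water, 542, 547 and 521 with doxycycline and 13.9, 32.7 and 21.9 with EtBr. Water replicate 1 was the highest, and the 3 EtBr libraries were far below all others. The change was -5.21 ± 0.42 (limma adjusted p = 3.45e-05) against water and -4.57 ± 0.30 (limma adjusted p = 8.33e-05) against doxycycline. WRKY65 (AT1G29280, chromosome 1, 10236337 to 10237990, plus strand) of group IIe stood at 1225, 556 and 975 in water, 1003, 793 and 924 with doxycycline and 93.0, 153 and 133 with EtBr, again with EtBr apart. It changed by -2.83 ± 0.31 (limma adjusted p = 0.000138). WRKY57 (AT1G69310, chromosome 1, 26054275 to 26058383, minus strand), known from drought tolerance and jasmonate-induced senescence, stood at 451, 435 and 459 in water, 441, 385 and 432 with doxycycline and 108, 155 and 125 with EtBr. Its water and doxycycline libraries overlapped and its EtBr libraries were lower. The change was -1.83 ± 0.18 (limma adjusted p = 8.48e-05) against water and -1.70 ± 0.16 (limma adjusted p = 0.000265) against doxycycline.

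WRKY59 (AT2G21900, chromosome 2, 9333844 to 9336278, minus strand) of group IIc stood at 141, 79.2 and 228 in water, 44.0, 11.1 and 67.3 with doxycycline and 6.95, 21.8 and 32.8 with EtBr. Both treatments were below water without overlap. The change was -2.93 ± 0.59 (limma adjusted p = 0.00314) with EtBr, -2.33 without EtBr replicate 1, and -2.05 ± 0.60 (limma adjusted p = 0.0519) with doxycycline, which missed the threshold. It passed in edgeR (-1.89, edgeR adjusted p = 0.0464) and DESeq2 (-1.88, DESeq2 adjusted p = 0.00206), with a filter on low means, with centred libraries and with the replicate block. WRKY69 of group IIe stood at 187, 202 and 228 in water, 190.4, 164 and 153 with doxycycline and 73.9, 77.3 and 74.6 with EtBr. It changed by -1.46 ± 0.19 (limma adjusted p = 0.00033) with EtBr. The overlapping gene AT3G58720 on the opposite strand had a mean of 274 in water and 46.4 with EtBr. Reads of this overlap cannot be assigned without strand information, and their share was not measured. WRKY7, a calmodulin-binding member of group IId, stood at 2769.9, 2224 and 1922 in water, 2230.1, 1902 and 2234 with doxycycline and 946, 1107 and 1202 with EtBr. It changed by -1.10 ± 0.17 (limma adjusted p = 0.000758), with EtBr apart from both groups. Smaller falls were those of WRKY3, a factor of resistance to necrotrophic fungi, at -0.59 ± 0.15 (limma adjusted p = 0.0114), and of WRKY20, at -0.47 ± 0.14 (limma adjusted p = 0.0177). The call of WRKY3 was lost without EtBr replicate 2 (log2 -0.66 to -0.47 over the 6 omissions, with limma adjusted p up to 0.0514), and that of WRKY20 without EtBr replicate 2 or water replicate 1 or 3 (log2 -0.57 to -0.41 over the 6 omissions, with limma adjusted p up to 0.0636). WRKY47 changed by -1.43 ± 0.44 (limma adjusted p = 0.0234), a call lost when EtBr replicate 1 or 2, or water replicate 1 or 3, was left out (log2 -1.92 to -1.10 over the 6 omissions, with limma adjusted p up to 0.178). Its levels were 2337, 1022 and 1536 in water and 369, 463 and 1157 with EtBr, so these groups overlapped.

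WRKY22 (AT4G01250, chromosome 4, 522530 to 524249, minus strand), which acts with WRKY29 below the MAP kinases that report bacterial flagellin, stood at 4818, 4196 and 3129 in water, 3638, 3296 and 3641 with doxycycline and 817, 864 and 2401 with EtBr. All EtBr libraries were below water, but replicate 3 was well above the other 2. The change was -1.76 ± 0.39 (limma adjusted p = 0.00519) over all EtBr libraries and -2.27 ± 0.21 (limma adjusted p = 0.00153) without replicate 3. The call was lost without EtBr replicate 1 or 2 (log2 -2.27 to -1.49 over the 6 omissions, with limma adjusted p up to 0.0751). WRKY29 stood at 2343, 419 and 1059.7 in water, 1062, 874 and 1684 with doxycycline and 161, 235 and 2386 with EtBr. Its EtBr libraries ranged from the lowest to the highest of all 9, and its change was -1.20 ± 0.99 (limma adjusted p = 0.333), or -2.40 ± 0.77 (limma adjusted p = 0.0547) without EtBr replicate 3, which also did not pass. WRKY29 overlaps AT4G23560 on the opposite strand, whose mean was 4.57 in water and 106 with EtBr.

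EtBr replicate 3 stood above the other EtBr libraries for many further members. Among 62 members with an EtBr mean of at least 20, it exceeded the mean of EtBr replicates 1 and 2 by more than 2-fold for 21, where 4.64% of 20566 genes did so, and fell below it by as much for 1 (WRKY23), where 3.92% did. The median log2 ratio of replicate 3 to the others was 0.51 for the members and -0.01 for all genes. It was 4.16 for WRKY72, 3.80 for WRKY9, 3.59 for WRKY29, 2.83 for WRKY61 and 2.49 for WRKY71, which regulates shoot branching. WRKY9 stood at 245, 39.6 and 162 in water, 54.2, 67.9 and 89.7 with doxycycline and 59.1, 45.5 and 739 with EtBr, with EtBr replicate 3 above all other libraries. AT1G68160, which overlaps it on the opposite strand, had means of 288 in water and 322 with EtBr. WRKY11 and WRKY17, group IId negative regulators of resistance to bacteria, stood at 1639.6, 2006 and 4849 and at 437, 474 and 1704 with EtBr, against 4336, 3574 and 3552 and 1629, 933 and 1051 in water. Their changes were -0.62 ± 0.36 (limma adjusted p = 0.175) and -0.75 ± 0.49 (limma adjusted p = 0.223) over all EtBr libraries, and -1.09 ± 0.15 (limma adjusted p = 0.00445) and -1.38 ± 0.27 (limma adjusted p = 0.0125) without replicate 3.

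Of the 21 members high in EtBr replicate 3, 17 had their lowest water value in water replicate 2. Of the 911 genes of both tables that were as high in EtBr replicate 3, 66.4% did. Most early markers of immune signalling had a like order within these groups. FRK1, PER4, NHL10, CYP81F2, PROPEP2 and PROPEP3 were lowest of water in replicate 2 and highest of EtBr in replicate 3. The 2 shown, FRK1 and PER4, were chosen after their values were seen. FRK1, a receptor kinase gene induced by flagellin, stood at 3314, 321 and 1681 in water, 1724, 2060.3 and 3514 with doxycycline and 439.9, 465 and 5066 with EtBr, and PER4, a peroxidase gene of the same response, at 1922, 245 and 1064 in water, 314, 512 and 648 with doxycycline and 546, 535 and 3217 with EtBr. Within their groups both were lowest in water replicate 2 and highest in EtBr replicate 3. PHI-1, the remaining marker of this list, stood at 3946, 3197 and 3001 in water, 3668, 3805 and 3397 with doxycycline and 973, 1117 and 1850.5 with EtBr. It was highest of EtBr in replicate 3, but its lowest water value was in water replicate 3. Of the 7 markers on this list 1 was higher and 1 lower with doxycycline, and 2 higher and 2 lower with EtBr. All genes gave 6.47% higher and 5.27% lower calls with doxycycline, and 34.2% higher and 21.2% lower calls with EtBr. The part of these immune markers in the family's values was not tested.

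**Figure D4:**
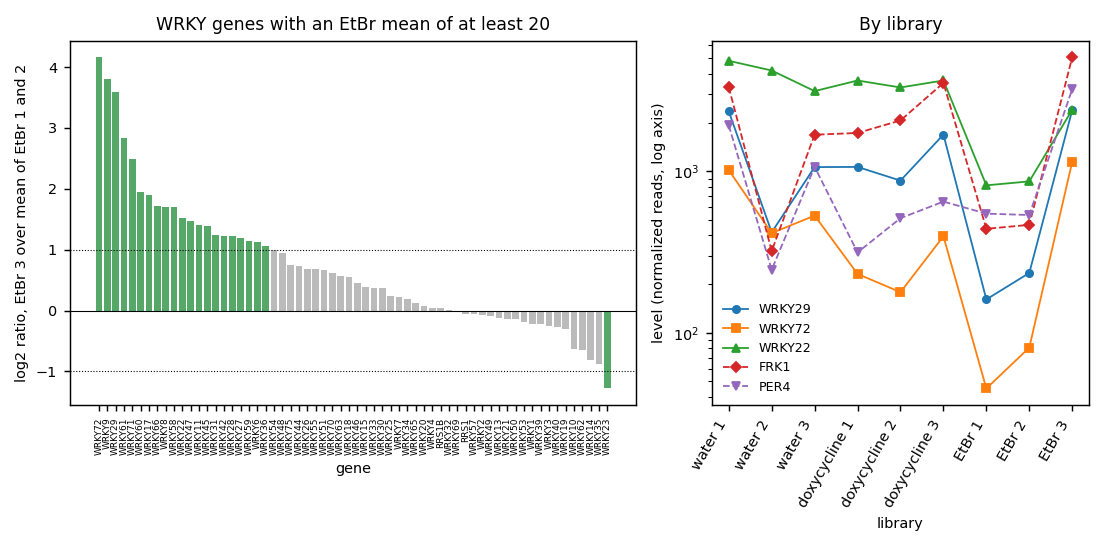
Left, log2 ratio of EtBr replicate 3 to the mean of EtBr replicates 1 and 2 for the 62 WRKY genes with an EtBr mean of at least 20 (bars; green beyond 2-fold, dotted lines at 2-fold). Right, normalized reads on a log axis in the 9 libraries for WRKY29, WRKY72 and WRKY22 and for the immune markers FRK1 and PER4 (lines only join points of 1 gene); all but WRKY22 rise from EtBr replicates 1 and 2 to a maximum in EtBr replicate 3.

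EtBr was also compared with doxycycline directly over the 68 shared members. EtBr was higher for 14 and lower for 20, so 50% were called against 57.3% of all 24319 shared genes. Higher calls made up 20.6% against 32.4%, and lower calls 29.4% against 24.8%. The median of the members was -0.31 (log2), against 0.14 for all genes. Without EtBr replicate 3 the counts were 14 higher and 30 lower, where 58.7% of all genes were called (32.9% higher and 25.8% lower). Of the 34 calls, 30 were kept in each of the 6 omissions. Group IIe had 5 of 7 members lower and 0 higher, and all 7 lower without EtBr replicate 3, whereas group III had 6 of 11 higher and 2 lower in either fit. WRKY33 (AT2G38470, chromosome 2, 16108235 to 16110766, plus strand), the activator of camalexin synthesis and the member with the most reads, stood at 10792, 13606 and 14055 in water, 14322, 16473 and 14637 with doxycycline and 8924, 8552 and 11322 with EtBr. EtBr minus doxycycline was -0.67 ± 0.15 (limma adjusted p = 0.00875), without overlap. Against water WRKY33 changed by 0.23 ± 0.15 (limma adjusted p = 0.371) with doxycycline and -0.44 ± 0.17 (limma adjusted p = 0.0584) with EtBr. WRKY33 and WRKY40 overlap opposite-strand genes with far fewer reads, AT2G38480 and AT1G80850, whose means in water were 73.4 and 87.6. The tools edgeR and DESeq2 did call the change of WRKY33 with EtBr, as did limma without EtBr replicate 3, at -0.57 ± 0.15 (limma adjusted p = 0.0316). WRKY70, a node between salicylate and jasmonate signalling, stood at 1628, 696 and 1719 in water, 985, 1157 and 1376 with doxycycline and 1557, 1358 and 2241 with EtBr. The groups overlapped and neither change passed, at -0.12 ± 0.30 (limma adjusted p = 0.843) and 0.40 ± 0.35 (limma adjusted p = 0.349).

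Genes that act with the WRKY factors were read from lists drawn up with earlier results of these data known. In the MAP kinase cascade upstream of the factors, 1 of 13 genes was higher and 0 lower with doxycycline, and 6 were higher and 3 lower with EtBr. The median changes were 0.14 and 0.25 (log2), against -0.01 and 0.39 for all genes. Over all genes the shares were 6.47% higher and 5.27% lower with doxycycline, and 34.2% higher and 21.2% lower with EtBr. MKK9, a MAP kinase kinase, stood at 1972, 1410.0 and 1897 in water, 3592, 3556 and 3063 with doxycycline and 1812, 1887 and 1740.0 with EtBr, high in the doxycycline libraries alone. The change was 0.95 ± 0.14 (limma adjusted p = 0.00195). MPK6, the kinase next in order of p with doxycycline, did not pass, at 0.26 ± 0.11 (limma adjusted p = 0.175). MPK3, a kinase that phosphorylates WRKY33, stood at 8329, 9706 and 9534 in water, 10170.1, 11259 and 9415 with doxycycline and 1791, 1501 and 2326 with EtBr. Its EtBr libraries were far below the rest. The change was -2.34 ± 0.18 (limma adjusted p = 2.58e-05). MPK11, a relative of MPK4, stood at 212, 231 and 179 in water, 242, 212 and 297 with doxycycline and 573, 674 and 1125 with EtBr, highest with EtBr, and rose by 1.85 ± 0.25 (limma adjusted p = 0.000433).

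VQ proteins, small partners that bind WRKY domains, were measured for 11 of the 15 listed. Of these 3 were higher and 0 lower with doxycycline, and 8 higher and 2 lower with EtBr, where 6.47% of all genes were higher with doxycycline and 34.2% were higher and 21.2% lower with EtBr. The list had medians of 0.41 and 1.23 (log2) against -0.01 and 0.39 for all genes. SIB1, which binds and activates WRKY33, stood at 240.4, 151 and 306 in water, 373, 584 and 582 with doxycycline and 1459, 1731 and 2855 with EtBr, in 3 groups without overlap, and rose by 1.15 ± 0.26 (limma adjusted p = 0.0191) and 3.08 ± 0.31 (limma adjusted p = 9.72e-05). VQ1 stood at 216, 362 and 365 in water, 686, 656 and 543 with doxycycline and 122, 109 and 105 with EtBr. It was high with doxycycline and low with EtBr. The changes were 1.02 ± 0.20 (limma adjusted p = 0.0097) and -1.46 ± 0.24 (limma adjusted p = 0.00106). VQ9, a partner of WRKY8 in salt stress, changed by 1.06 ± 0.19 (limma adjusted p = 0.00555) and 1.15 ± 0.23 (limma adjusted p = 0.00298), and VQ10 by 0.80 ± 0.38 (limma adjusted p = 0.219) and 3.19 ± 0.35 (limma adjusted p = 0.000138). MKS1, which ties MPK4 to WRKY25 and WRKY33, was with VQ1 among the 2 that fell with EtBr, at -0.81 ± 0.17 (limma adjusted p = 0.00349).

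Among 7 genes of camalexin synthesis, an antimicrobial pathway under WRKY33, 1 was higher and 0 lower with doxycycline, and 3 were higher and 1 lower with EtBr, with medians of 0.17 and 2.14 (log2). The 3 of 7 lie near the 34.2% of all genes that were higher with EtBr. Of all genes 6.47% were higher with doxycycline and 21.2% were lower with EtBr. CYP71B15, the last enzyme, stood at 49.3, 6.93 and 56.4 in water, 156, 213 and 223 with doxycycline and 1644, 1619.8 and 1379.9 with EtBr. The 3 groups did not overlap, and it rose by 2.77 ± 0.63 (limma adjusted p = 0.0184) and 5.74 ± 0.66 (limma adjusted p = 0.000185). CYP71A13, an earlier step, stood at 2.05, 0 and 0 in water, 0, 0 and 1.02 with doxycycline and 85.2, 76.4 and 81.6 with EtBr, high in the EtBr libraries alone. GSTF6, a glutathione transferase, rose by 2.14 ± 0.30 (limma adjusted p = 0.000484) with EtBr. It changed by 0.57 ± 0.23 (limma adjusted p = 0.151) with doxycycline.

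Of 12 genes of salicylate synthesis and response, 2 were higher and 0 lower with doxycycline, and 8 higher and 0 lower with EtBr, with medians of 0.12 and 1.35 (log2). Over all genes 6.47% were higher with doxycycline and 34.2% with EtBr. ICS1, which makes the precursor and is a target of WRKY28, stood at 610.3, 362 and 529.9 in water, 1259, 1315 and 1986 with doxycycline and 1887, 2102 and 3012 with EtBr, and every treated library was above water. It rose by 1.59 ± 0.22 (limma adjusted p = 0.00118) and 2.199 ± 0.24 (limma adjusted p = 0.000134). PBS3, the next enzyme, rose by 2.96 ± 0.45 (limma adjusted p = 0.00223) with doxycycline and 3.83 ± 0.57 (limma adjusted p = 0.000705) with EtBr, and EDS1, an immune regulator upstream of salicylate, by 0.92 ± 0.13 (limma adjusted p = 0.000577) with EtBr. Among the early immune markers, CYP81F2, an enzyme of defence glucosinolates, rose by 1.76 ± 0.25 (limma adjusted p = 0.00136) and 1.69 ± 0.36 (limma adjusted p = 0.00404), PROPEP3, a gene for an immune peptide, changed by -1.76 ± 0.33 (limma adjusted p = 0.00647) and -1.35 ± 0.50 (limma adjusted p = 0.0478), and with EtBr PHI-1 changed by -1.43 ± 0.24 (limma adjusted p = 0.00122) and NHL10, a flagellin-responsive gene, by 2.74 ± 0.52 (limma adjusted p = 0.00251). For the tissue markers, 0 of 8 leaf genes were higher and 1 lower with doxycycline, and 2 higher and 4 lower with EtBr. The shares of all genes, for leaf and root markers alike, were 6.47% higher and 5.27% lower with doxycycline. With EtBr they were 34.2% higher and 21.2% lower. LHCA1 of photosystem I changed by -0.77 ± 0.18 (limma adjusted p = 0.0186) and CA1, a carbonic anhydrase, by 0.22 ± 0.23 (limma adjusted p = 0.607) with doxycycline, and LHCB2.1, a light-harvesting protein, by 1.90 ± 0.14 (limma adjusted p = 2.66e-05) and PSAD-1, a photosystem I subunit, by -1.68 ± 0.14 (limma adjusted p = 3.64e-05) with EtBr. Of the 9 root genes 0 were higher and 2 lower with doxycycline, and 3 higher and 3 lower with EtBr. The phosphate transporter PHT1-1 changed by -1.76 ± 0.43 (limma adjusted p = 0.0248) and EXPA7, an expansin of root hairs, by -3.02 ± 0.86 (limma adjusted p = 0.0486) with doxycycline, and CASP1, of the Casparian strip, by -1.88 ± 0.23 (limma adjusted p = 0.000251) and the aquaporin TIP2-3 by 2.26 ± 0.31 (limma adjusted p = 0.000421) with EtBr. Without EtBr replicate 3, the counts of higher and lower genes with EtBr were 5 and 3 of 13 in the MAP kinase list, 6 and 2 of 11 VQ genes, 3 and 0 of 7 camalexin genes, 7 and 0 of 12 salicylate genes, 2 and 2 of 7 immune markers, 2 and 4 of 8 leaf genes and 2 and 3 of 9 root genes. In that fit 33.6% of all genes were higher and 19.9% lower.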

How the data were processed

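Libraries were made from TRIzol RNA with a NEBNext Ultra kit, per the labels' protocols. The submitters' processing notes name DESeq 1.18.0, HTSeq 0.6.1, TopHat2 2.0.12, Bowtie2 2.2.3 and CASAVA 1.8 without their roles. Neither strandedness nor the genome build is given in the sources used here. The authors deposited signal values per library, which are counts of reads over a size factor of the library: in every column 100% of values fell on multiples of the value of 1 read (tolerance 0.001 of a read), a test that is weak for the 4 columns where a read is worth about 1. The deposited log2 fold changes, p-values and group means were not used.

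On the scale log2(value + 1), all genes of a table were fitted in limma 3.58.1 under R 4.3.3, using its mean-variance trend, the 6 libraries compared and no replicate block. EtBr against doxycycline used the recovered reads of 24319 shared genes over median-ratio size factors of 9 libraries. These size factors also give the printed levels; they move the median log2 change by 0.01 and 0.02 from the deposited scale. The script was tested on simulated data. Of 29071 identifiers 28255 matched RefSeq TAIR10.1, 99.98% of them with the same start and end.

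Members, lists and tests were chosen with earlier results of these data known. The text names, per comparison, the 8 largest called rises and 8 largest called falls of members with a mean of at least 20, plus WRKY40, WRKY18, WRKY60, WRKY63, WRKY15, WRKY33, WRKY6, WRKY70, WRKY53, WRKY75 and AT5G46310, and of each list outside the family the 2 genes with the smallest adjusted p in each comparison against water. Other genes named were chosen after their values were seen. Alternatives changed the pseudocount (0.1 and 5), a filter (mean of at least 10), the trend, the block, the centring, the threshold (0.01), the fold (2), the libraries and the tool (edgeR 4.0.16 with TMM, DESeq2 1.42.0).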

Additional observations from a re-analysis of the deposited data

How the results depend on the processing

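The counts of called WRKY genes kept within 1.5 times the reported ones under most alternatives. The 14 higher calls with doxycycline became 9 without a variance trend and 9 at an adjusted p under 0.01, and ranged from 7 to 14 with 1 library left out. The 4 lower calls became 2 when a change of at least 2-fold was asked, and ranged from 1 to 4 with 1 library left out. The 20 lower calls of EtBr against doxycycline became 12 at 2-fold or more. With 1 library left out, EtBr against water gave 18 to 22 higher and 10 to 22 lower calls, and EtBr against doxycycline 12 to 15 and 19 to 30. The cause of these moves was not tested, beyond the fewer libraries or stricter limits that the alternatives impose. Shares of all genes called were computed only for the reported fits and for those without EtBr replicate 3. Of 1334 settings of single genes, 49 lost the call, 27 gained it and 1258 stayed on the same side of the threshold. Of the latter 1227 kept their sign, 30 turned it and 1 became 0, none of them called in either fit (adjusted p of at least 0.27). The turned changes were those of WRKY18, WRKY40, WRKY65 and WRKY70 with doxycycline, of WRKY31, WRKY56 and WRKY70 with EtBr, and of WRKY15, WRKY60 and WRKY72 between EtBr and doxycycline. The widest were WRKY72 between treatments, from -0.64 to 0.57 in edgeR, and WRKY60 between treatments, from 0.41 to -0.25 without EtBr replicate 3.

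Deviations of same-numbered libraries correlated from -0.15 to 0.21, without a common sign over all comparisons. Between doxycycline and EtBr they correlated by 0.04, 0.10 and 0.21, and those of other numbers by -0.18 to 0.15. Whether replicate numbers pair these libraries was not tested further. With the replicate block, doxycycline against water gave 13 higher and 5 lower calls, EtBr against water 19 and 15, and EtBr against doxycycline 17 and 25. On the recovered reads, edgeR with its filter on low counts shared 13 of the 14 higher and all 4 lower calls of doxycycline, and 15 of the 20 higher and all 15 lower calls of EtBr, without AT5G46310, WRKY39, WRKY43, WRKY64 and WRKY67. Without the filter edgeR called all 14 higher and 4 lower genes of doxycycline, and 19 of the 20 higher and all 15 lower genes of EtBr; DESeq2 shared 14 and 3, and 18 and 14. Every other scaling moved the median of all genes by less than 0.1 (log2). With 3 libraries a group, missing the threshold does not show a member to be unchanged, and members with fewer than 10 normalized reads have little precision.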
